A study of Homo sapiens with 6 samples.

Results

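Keratins are the intermediate filament proteins of epithelial cells, and 44 keratin genes were followed here in SUM149 cells after siRNA against TIG1. Members were all genes whose symbol is KRT with a number and at most a letter A to C, measured by a probe set that the array annotation pairs with that symbol alone. They came from 56 probe sets, and each gene was represented by its probe set with the highest mean, so the 44 keratins stand among 19775 genes tested. The RefSeq table lists 55 such genes. KRT6A, KRT6B, KRT6C, KRT17, KRT26, KRT28, KRT34, KRT39, KRT81, KRT82 and KRT86 were not analysed here.

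SUM149 is a line of human inflammatory breast carcinoma cells, and all cells were grown with serum, insulin and hydrocortisone. Of 6 arrays, 3 came from cells transfected with a non-targeting pool (siControl, of the siGENOME line) and 3 from cells that received TIG1-directed siRNA (siTIG1, of the ON-TARGET Plus line), each at 200 nmol/L with oligofectamine. TIG1 is the earlier name of RARRES1, a retinoid-induced gene. The groups thus differed in target and in kind of siRNA, and these cannot be told apart. The labels give neither the time of harvest nor the origin of the replicates. If these were not separate cultures, the p-values cover technical spread alone.

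Keratin filaments are built from pairs of an acidic type I and a basic type II protein, whose genes lie in a cluster each. Simple keratins such as KRT8 and KRT18 fill single-layered and glandular epithelia, basal keratins such as KRT5 and KRT14 the dividing layer of stratified epithelia and the myoepithelial layer of the breast, and squamous keratins the layers above it, or epithelia under stress. Hair keratins belong to the hair shaft and its root sheath. Breast tumours are commonly described as luminal or basal by the simple and basal keratins they express.

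The 3 probe sets of the targeted gene all had negative differences, and none passed the test. On the first probe set RARRES1 read 11.04, 10.92 and 12.58 (log2 signal) on siControl replicates 1 to 3 and 10.72, 10.03 and 9.96 on siTIG1 replicates 1 to 3. Every siTIG1 array lay below every control there and on the second probe set, with differences of -1.28 and -1.24 (siTIG1 minus siControl, limma adjusted p = 0.20 and 0.23 over all probe sets). On the third, which represents the gene, it read 12.65, 12.61 and 13.74 in siControl and 12.69, 11.95 and 11.87 in siTIG1. These overlapped (difference -0.83 ± 0.36 SE, limma adjusted p = 0.25 over all genes). The array labelled siTIG1 replicate 1 differed from the mean of siControl replicates 1 and 2 by -0.27, -0.17 and 0.06 on the 3 probe sets, and every direction given for siTIG1 includes it. The array of siControl replicate 3 stood apart, correlating with the other controls at 0.985 over probe sets, against 0.998 between those controls and 0.992 to 0.993 between them and the siTIG1 arrays. The 3' minus 5' signal of the ACTB control probe sets, which grows as RNA degrades, was 2.85 ± 0.31 in siControl, highest on replicate 3 at 3.21, and 2.25 ± 0.10 in siTIG1 (means with SD over 3 arrays). A 2-sided exact permutation test gave p = 0.1, which is as low as this design can go. The same measure of GAPDH was 0.50 ± 0.06 and 0.46 ± 0.01 (exact permutation p = 0.2). The part of RNA quality in the keratin results was not tested.

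Of the 44 keratins, KRT19, KRT15, KRT23 and KRT9 rose and KRT80 fell in the siTIG1 group, while 39 did not pass limma's threshold of 0.05 on the p adjusted over all genes. Among all genes tested 3.15% were called higher, 4.17% lower and 7.32% in either direction. The arrays of the groups did not overlap for 8 keratins that were higher (KRT8, KRT19, KRT23, KRT5, KRT15, KRT9, KRT24 and KRT75) and for KRT80, which was lower. Of all genes 16.6% had such a pattern upward, 15.4% downward and 32.0% in either direction. Among the 12 keratins with a signal above the median gene level of 8.74, 3 rose and 1 fell, where 12.6% of all genes above that level were called. In bulk RNA, fewer cells of a kind and less RNA per cell cannot be told apart. The median keratin difference was 0.04 on the log2 scale, beside 0.02 over all genes, and 36 of the 44 differed by less than 0.2. That count was not made over all genes, whose median absolute difference was 0.10, beside 0.06 for keratins. Of the 44 keratins, 32 lay below the median gene level. By class, 2 of 6 simple keratins rose (median difference 0.25), 1 of 3 basal keratins rose (median 0.42), 1 of 15 squamous keratins rose and 1 fell (median 0.04), and 0 of 19 hair keratins passed (median 0.02). The simple median was 0.14 without siControl replicate 3 and 0.10 over all simple keratin probe sets. The basal median, which is the value of KRT5, was 0.29 without siControl replicate 3. KRT222, a small keratin-like gene outside these classes, differed by 0.05 from a signal of 5.31.

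**Figure D1:**
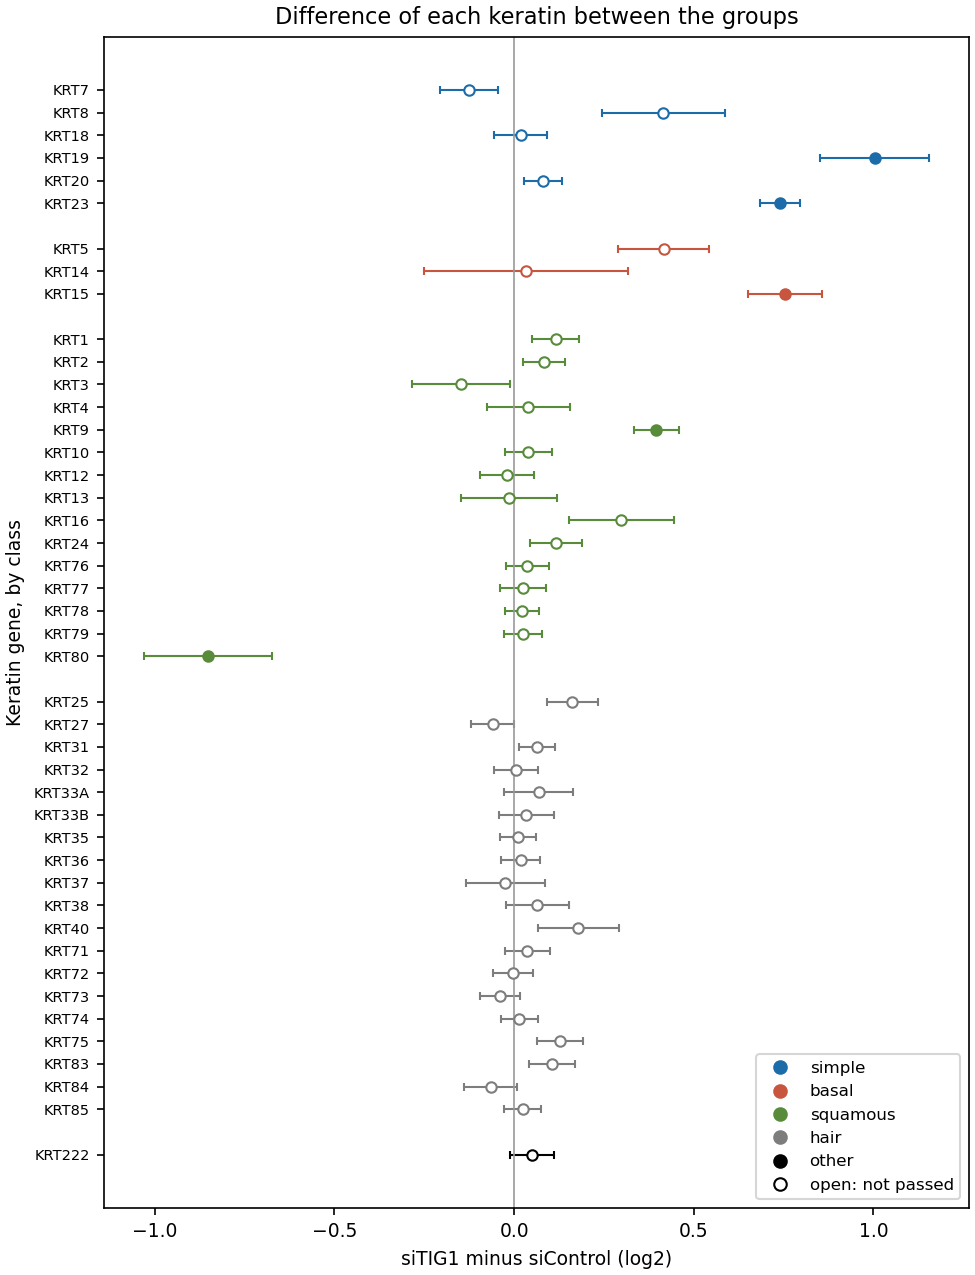
Log2 difference, siTIG1 minus siControl, of the 44 keratins by class. Points are the difference between means of 3 arrays, bars the standard error of the limma fit, and filled points passed the threshold. KRT19, KRT23, KRT15 and KRT9 lie to the right and KRT80 to the left, and the 19 hair keratins lie between -0.06 and 0.18.

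Among the simple keratins, KRT19 is a small type I keratin of glandular epithelium that lacks most of the usual tail. By the probe set that represents each gene, it had the largest rise of the family. KRT19 read 12.72, 12.73 and 12.23 on siControl replicates 1 to 3 and 13.72, 13.51 and 13.46 on the siTIG1 arrays. Every siTIG1 array lay above every control, and siControl replicate 3 was the lowest of all. The means of 12.56 ± 0.28 and 13.56 ± 0.14 (SD, n = 3 each) differed by 1.00 ± 0.15 (SE), 2.005-fold (limma adjusted p = 0.016). The KRT19 difference was 0.84 once siControl replicate 3 was left out, and passed (limma adjusted p = 6.3e-05). The call was lost without siTIG1 replicate 1 (limma adjusted p = 0.076), siTIG1 replicate 2 (0.086) or siTIG1 replicate 3 (0.079), with differences from 0.92 to 1.06. The other probe set of KRT19 had a low signal, with a mean of 7.27 over the 6 arrays, and differed by 0.12 (limma adjusted p = 0.44 over all probe sets). With the mean of its probe sets KRT19 was at 0.56 (limma adjusted p = 0.030), below KRT15 (0.75) and KRT23 (0.74).

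KRT23, a type I keratin first described as inducible in pancreatic cancer cells, had the smallest adjusted p of the family. KRT23 read 6.99, 7.02 and 7.12 in siControl and 7.79, 7.81 and 7.75 in siTIG1. The groups were far apart relative to their spread, with SDs of 0.07 and 0.03 (n = 3 each), and the difference was 0.74 ± 0.06 (SE, 1.67-fold, limma adjusted p = 0.0026). It was the only keratin called with each array left out in turn, with a highest limma adjusted p of 0.032, without siTIG1 replicate 2. Its signal lay below the median gene level in both groups, and the table holds no detection call, so the control signal is not shown to lie above background and the fold may be understated.

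KRT8 and KRT18, the pair that forms the first filaments of simple epithelium, did not move alike. KRT8 read 12.31, 12.29 and 11.71 in siControl and 12.40, 12.58 and 12.58 in siTIG1, so the groups did not overlap but siControl replicate 3 lay 0.59 below the other controls. The KRT8 difference of 0.42 ± 0.17 (SE) missed the threshold (limma adjusted p = 0.22). When siControl replicate 3 was left out it was 0.22 and passed (limma adjusted p = 0.036), while the other 5 arrays left out in turn gave no call. KRT18 read 13.79, 13.73 and 13.59 in siControl and 13.63, 13.77 and 13.76 in siTIG1. Its arrays overlapped fully, with a difference of 0.02 ± 0.07 (SE, limma adjusted p = 0.92) that was -0.04 without siControl replicate 3 and -0.0070 after quantile normalization. The KRT8 and KRT18 signals come from probe sets that can bind several transcripts (x_at), and whether the 2 genes differ in their change was not tested.

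KRT7, the type II partner found with KRT19 in ductal epithelium, read 14.49, 14.44 and 14.53 in siControl and 14.20, 14.43 and 14.45 in siTIG1. The groups overlapped, the array labelled siTIG1 replicate 1 was the lowest, and the difference of -0.13 ± 0.08 (SE) did not pass (limma adjusted p = 0.43). KRT7 had 4 probe sets, of which 3 had a negative and 1 a positive difference, all without a call. KRT20, a marker of intestinal epithelium and urothelial umbrella cells, stayed between 7.44 and 7.59 on all arrays (difference 0.08, limma adjusted p = 0.45).

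**Figure D2:**
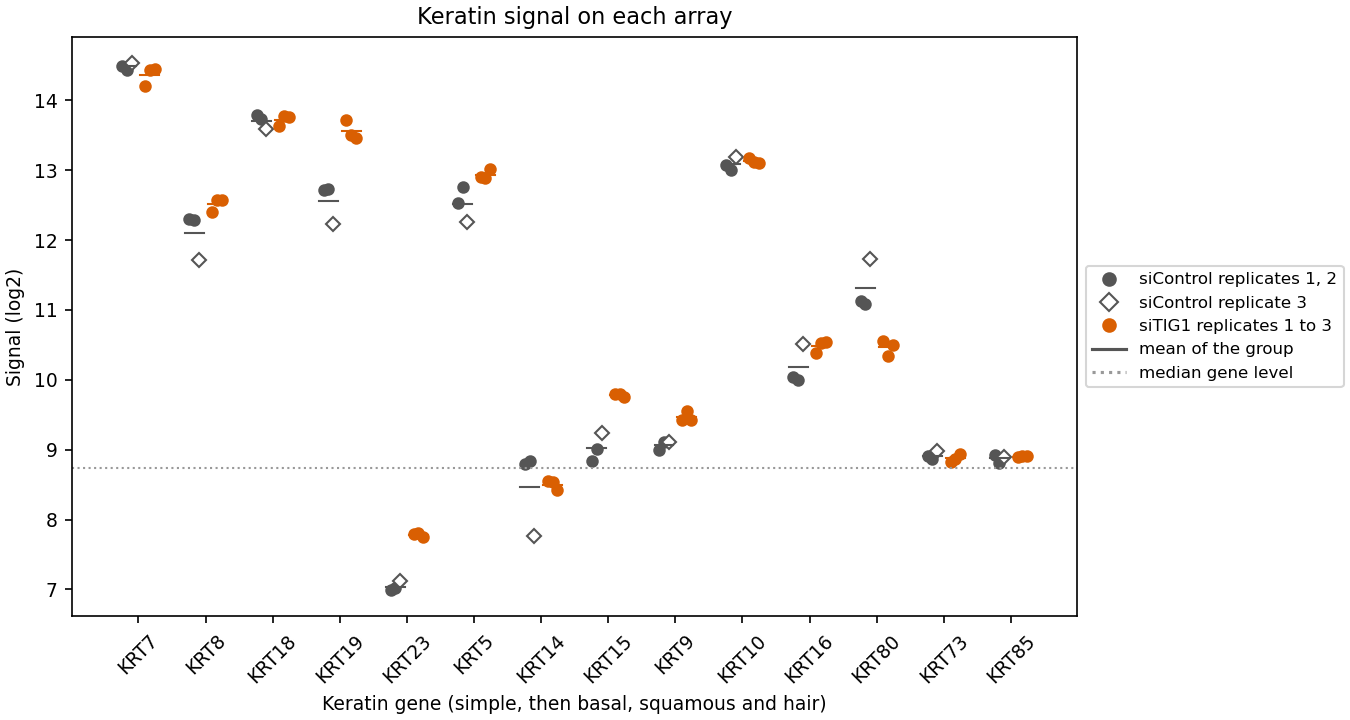
Log2 signal on each array for 14 keratins, with group means as lines and the median gene level dotted. Grey marks siControl, with replicate 3 as an open diamond, and orange siTIG1. The siTIG1 points lie above all controls for KRT8, KRT19, KRT23, KRT5, KRT15 and KRT9 and below them for KRT80, and replicate 3 is far below the other controls for KRT14. Signals of different genes depend on their probes and do not rank their RNA.

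Among the basal keratins, KRT15, a type I keratin of basal cells that marks stem cells of the hair follicle bulge, rose. KRT15 read 8.84, 9.003 and 9.25 in siControl and 9.80, 9.79 and 9.76 in siTIG1. The 3 siTIG1 values lay close together and above every control, and siControl replicate 3 was the control nearest to them. The difference was 0.75 ± 0.10 (SE, 1.69-fold, limma adjusted p = 0.013), and 0.86 without siControl replicate 3 (limma adjusted p = 1.4e-05). It was lost without siControl replicate 2 (limma adjusted p = 0.055) or siTIG1 replicates 1 (0.067), 2 (0.078) or 3 (0.076), with differences from 0.74 to 0.77.

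KRT5 and KRT14 form the filaments of basal cells together. KRT5 read 12.54, 12.75 and 12.26 in siControl and 12.90, 12.89 and 13.01 in siTIG1. All siTIG1 arrays were higher, but the difference of 0.42 ± 0.13 (SE) missed the threshold (limma adjusted p = 0.11). In the fit lacking siControl replicate 3 it was 0.29 and passed (limma adjusted p = 0.016). KRT14 read 8.79, 8.84 and 7.77 in siControl and 8.55, 8.54 and 8.42 in siTIG1. The siTIG1 arrays lay between siControl replicate 3 and the other controls, and the difference was 0.03 ± 0.28 (SE, limma adjusted p = 0.96). Without siControl replicate 3, which was 1.05 below the other controls, KRT14 was at -0.32 ± 0.06 (SE) and called lower (limma adjusted p = 0.0031). KRT14 and KRT5 therefore had opposite signs in the comparison without that array and the same sign with it. KRT14 fell outside the rule for named genes and was chosen after its values were seen.

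Among the squamous keratins, KRT80, a type II keratin of many epithelia that appears as keratinocytes differentiate, was the only fall of the family with all arrays. KRT80 read 11.13, 11.08 and 11.73 in siControl and 10.55, 10.34 and 10.49 in siTIG1. Every siTIG1 array was below every control, and siControl replicate 3 lay 0.62 above the other controls. The means of 11.31 ± 0.36 and 10.46 ± 0.11 (SD, n = 3 each) differed by -0.85 ± 0.18 (SE), 1.81-fold lower (limma adjusted p = 0.042). Leaving out siControl replicate 3 gave a difference of -0.64 (limma adjusted p = 0.00014). The call was lost after quantile normalization (limma adjusted p = 0.054), without siControl replicates 1 (0.078) or 2 (0.071), and without siTIG1 replicates 1 (0.13), 2 (0.17) or 3 (0.16).

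KRT9, a type I keratin known from the skin of palms and soles, rose by a smaller amount. KRT9 read 8.996, 9.12 and 9.11 in siControl and 9.43, 9.55 and 9.42 in siTIG1. The groups did not overlap and siControl replicate 3 lay among the other controls, with a difference of 0.40 ± 0.06 (SE, 1.32-fold, limma adjusted p = 0.018). Without siControl replicate 3 it was 0.41 (limma adjusted p = 0.0011), and without siControl replicates 1 (0.063) or 2 (0.057), or siTIG1 replicates 1 (0.071), 2 (0.091) or 3 (0.083), the call was lost. KRT9 has 1 probe set, so no other probe set of this gene bears on the signal. Its siControl mean of 9.07 lay little above the median gene level of 8.74. Without a detection call this signal is not shown to lie above background.

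KRT10, the suprabasal partner of KRT1 in epidermis, read 13.08, 13.00 and 13.19 in siControl and 13.18, 13.12 and 13.10 in siTIG1. These overlapped (difference 0.04 ± 0.07 SE, limma adjusted p = 0.78), and its 3 probe sets had differences from 0.04 to 0.09 over all probe sets, none of them called. KRT16, a type I keratin that rises in wounded and stressed epidermis, read 10.04, 10.00 and 10.52 in siControl and 10.38, 10.53 and 10.54 in siTIG1. siControl replicate 3 lay among the siTIG1 arrays, and the difference of 0.30 ± 0.15 (SE) missed the threshold (limma adjusted p = 0.30). In the fit lacking that array KRT16 was at 0.46 ± 0.06 (SE) and called higher (limma adjusted p = 0.00056). KRT16, KRT14 and KRT17 are close paralogs whose probes can share signal.

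The other 11 squamous keratins, KRT1, KRT2, KRT3, KRT4, KRT12, KRT13, KRT24, KRT76, KRT77, KRT78 and KRT79, had signals from 5.83 to 8.72 and differences from -0.15 to 0.12, with limma adjusted p-values of 0.37 or more. They include KRT1, KRT2 and KRT76 of cornified epithelia, KRT4 and KRT13 of the oesophagus, and KRT3 and KRT12 of the cornea. Of these 11, KRT24 alone had groups without overlap, where 32.0% of all genes had them.

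To show the regulatory sequence beside a called and an uncalled keratin, the 250 bases before the start site of KRT9 and KRT10 are given from the RefSeq promoter table (GRCh38.p14, minus strand, 5' to 3'), which matched 29 of the 44 keratins. KRT15, KRT19, KRT23 and KRT80 had no entry. Capitals mark matches to the searched motifs.
KRT9, chr17:41572060-41572309: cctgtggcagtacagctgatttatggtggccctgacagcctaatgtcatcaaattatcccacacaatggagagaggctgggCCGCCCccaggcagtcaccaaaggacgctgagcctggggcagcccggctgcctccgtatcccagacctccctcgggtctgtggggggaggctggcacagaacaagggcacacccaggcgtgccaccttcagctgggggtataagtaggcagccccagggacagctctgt
KRT10, chr17:40822615-40822864: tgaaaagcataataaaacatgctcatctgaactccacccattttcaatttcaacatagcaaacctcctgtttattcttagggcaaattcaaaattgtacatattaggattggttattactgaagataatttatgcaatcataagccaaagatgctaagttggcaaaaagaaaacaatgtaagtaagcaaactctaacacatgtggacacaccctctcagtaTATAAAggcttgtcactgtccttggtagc
In KRT9 the capitals are CCGCCC, the reverse complement of the Sp1 letters GGGCGG, at position -169 from the start site. In KRT10 they are the TATA box letters TATAAA at position -29. Both strands of the windows of 300 bases (250 before to 50 after the start) were searched for these motifs, for the AP-1 letters TGANTCA and for AGGTCA, the letters bound by retinoid and other nuclear receptors, counting overlaps of motifs separately. The TATA box letters were found in 15 of 29 keratin windows (51.7%) and in 11.95% of all 27305 windows. GGGCGG was found in 6 (20.7%) and in 44.6%, AGGTCA in 3 (10.3%) and in 13.9%, and TGANTCA in 0 of 29 and in 7.76%. No searched motif was found in both windows shown, and a match or its lack is a description of these letters.

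The hair keratins had the narrowest range of differences among the classes. All 19 lay between -0.06 and 0.18, and none passed limma's threshold, where 7.32% of all genes did. At an unadjusted p under 0.05 there were 0, where 21.9% of all genes passed, and the lowest adjusted p was 0.25. Flat values were not particular to this class, with a median absolute difference of 0.039 for hair and 0.040 for squamous keratins. Hair keratin signals ran from 6.48 to 8.98, and 17 of the 19 lay below the median gene level. Without a detection call they are not shown to lie above background. KRT73, of the inner root sheath, read 8.91, 8.86 and 8.98 in siControl and 8.83, 8.87 and 8.93 in siTIG1 (difference -0.04 ± 0.06 SE, limma adjusted p = 0.75). KRT85, of the hair shaft, read 8.93, 8.81 and 8.89 in siControl and 8.89, 8.91 and 8.91 in siTIG1 (difference 0.02 ± 0.05 SE, limma adjusted p = 0.83). These overlapped, and they were the only hair keratins whose higher group mean lay above the median gene level. KRT75, of the companion layer, was the only hair keratin whose groups did not overlap, with a difference of 0.13 (limma adjusted p = 0.32). Among all genes 32.0% had groups without overlap.

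The spread of the keratins lay mainly in the control group. For 36 of the 44 the SD was larger in siControl, with median SDs of 0.09 in siControl and 0.06 in siTIG1. The same comparison over all genes was not made. For 9 keratins siControl replicate 3 lay more than 0.3 from the mean of the other controls. It was below that mean for KRT14, KRT8, KRT19, KRT4 and KRT5 and above it for KRT80, KRT16, KRT3 and KRT15. This array lay as far out for 5306 of all 19775 genes, so such a deviation was not particular to keratins. Without that array 7 keratins were called higher (KRT19, KRT23, KRT15, KRT9, KRT16, KRT5 and KRT8) and 2 lower (KRT80 and KRT14), where 12.3% and 14.9% of all genes were. Without any other single array 1 to 3 were called higher and 0 lower. Of all 19775 genes 102 to 257 were then higher and 120 to 346 lower.

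**Figure D3:**
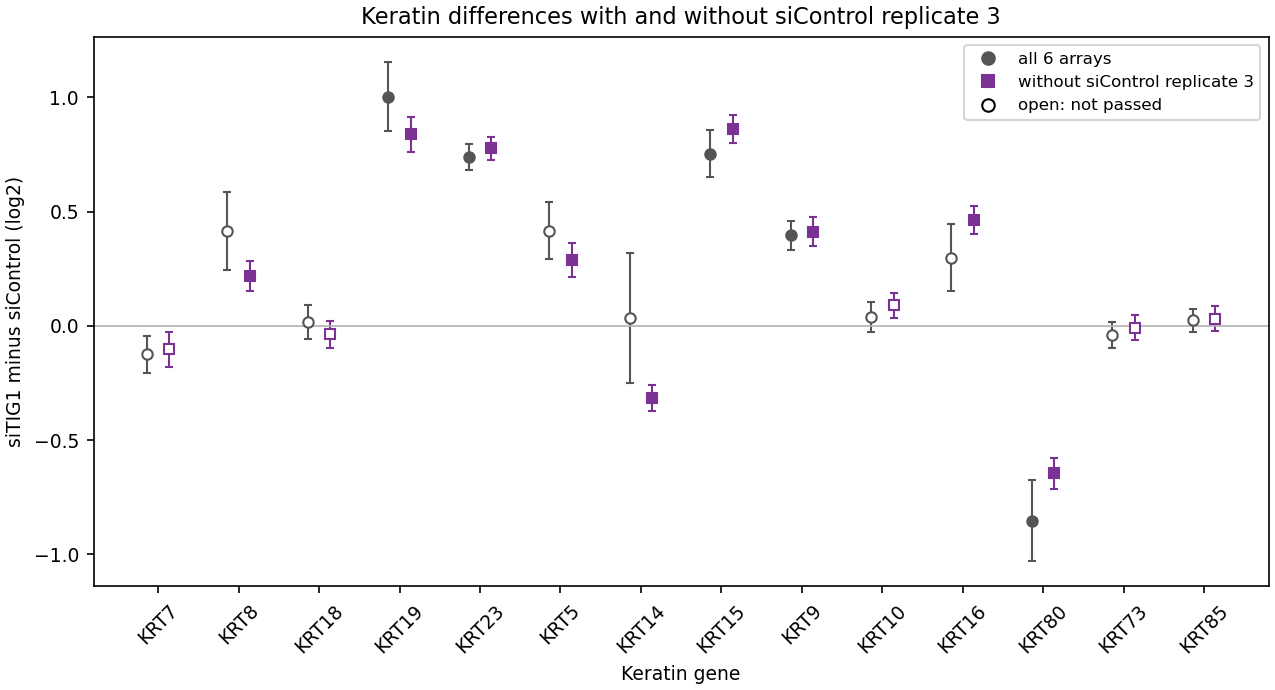
Log2 difference, siTIG1 minus siControl, of 14 keratins with all 6 arrays (circles) and without siControl replicate 3 (squares). Bars are standard errors of the limma fit and filled symbols passed the threshold. The signs agree except for KRT18 and KRT14, which turn negative without that array, at -0.04 and -0.32.

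By protein type, 4 of 23 type I keratins rose and none fell, and of 20 type II keratins none rose and KRT80 fell. At an unadjusted p under 0.05 these were 4 of 23 and 3 of 20, where 21.9% of all genes were, and whether the types differ was not tested. The median differences were 0.06 for type I and 0.02 for type II. The type I genes other than KRT18 lie on chromosome 17 and the type II genes and KRT18 on chromosome 12. In the order of keratin genes along chromosome 17 in the RefSeq table, KRT15, KRT19 and KRT9 follow each other, between KRT13 (difference -0.01) and KRT14 (0.03). KRT23 stands apart from them, between KRT20 and KRT39. On chromosome 12 KRT80 is the first keratin of the order, next to KRT7, and KRT8 and KRT18 are the last.

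**Figure D4:**
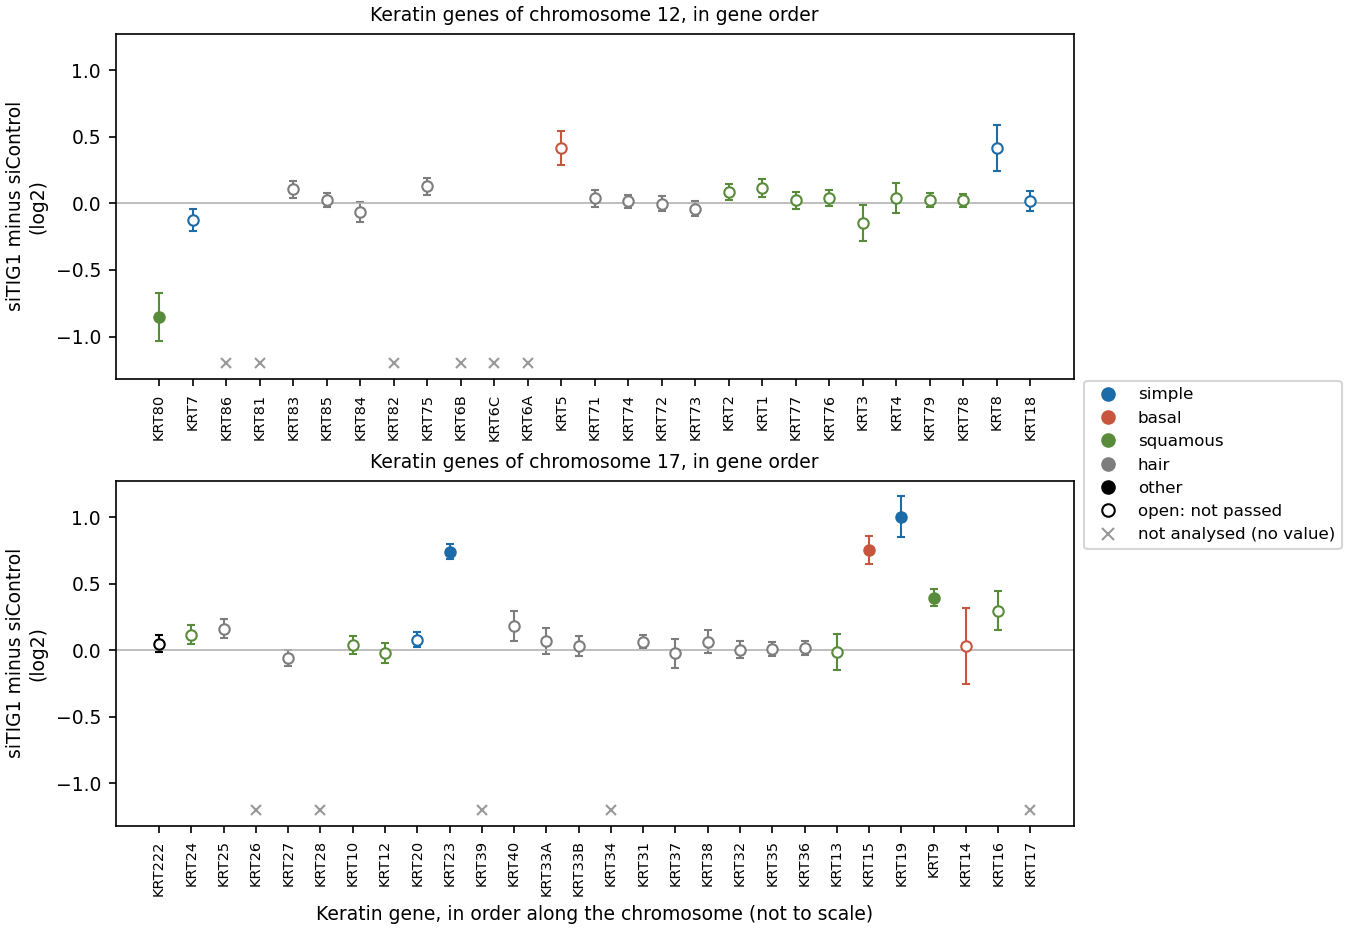
Log2 difference, siTIG1 minus siControl, of the keratin genes of chromosomes 12 and 17 in gene order, not to scale. Points are differences between means of 3 arrays with the standard error of the limma fit, filled where they passed, and crosses at the foot mark genes with no value. The rises of KRT15, KRT19 and KRT9 are adjacent, and the rise of KRT23 is separate.

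Genes whose products anchor keratin filaments changed in both directions. Of 18 measured genes of desmosomes, hemidesmosomes and plakins (21 in the list), 2 rose, 5 fell and 11 did not pass, where 3.15% of all genes rose and 4.17% fell. The median difference was -0.10, beside 0.02 over all genes. Of the 18, 16 had a group mean above the median gene level, where 12.6% of all genes were called in either direction. The desmosomal cadherins DSG3 (1.25 ± 0.10 SE, limma adjusted p = 0.0031) and DSC3 (0.32 ± 0.05 SE, 0.015) of stratified epithelium rose. DSG3 read 9.89, 9.87 and 10.21 in siControl and 11.16, 11.27 and 11.28 in siTIG1, with no overlap. ITGA6, the alpha chain of the hemidesmosome integrin, fell from 12.50, 12.55 and 12.64 to 11.41, 11.57 and 11.55 (-1.05 ± 0.07 SE, limma adjusted p = 0.0019). LAMB3, a chain of the laminin that this integrin binds, fell by 1.53, and the plakins EPPK1, which binds keratin filaments, and PLEC, which links them to hemidesmosomes, by 0.88 and 0.63 (limma adjusted p = 0.0041, 0.0048 and 0.015). PKP2, a plakophilin of desmosomes, fell by 0.85 (limma adjusted p = 0.018). DSC3, PLEC and PKP2 complete the counts and were chosen after their values were seen. DSG3, ITGA6, LAMB3 and EPPK1 were called with each single array left out. DSC3 was then called only without siControl replicate 3, PLEC in 3 cases (lost without siControl replicate 2, siTIG1 replicate 2 or 3) and PKP2 in 2 (kept without siControl replicate 3 or siTIG1 replicate 1). EPPK1 has 5 probe sets, and with their mean its difference was -0.42 (limma adjusted p = 0.010). The filter to genes above the median gene level left EPPK1 out. DSP, the plakin that ties keratins to desmosomes, was at 0.09 ± 0.12 (SE, limma adjusted p = 0.73). DSP fell outside the rule for named genes. When siControl replicate 3 was left out DSP was at 0.22 and passed (limma adjusted p = 0.013), and 4 of the 18 rose and 8 fell, with their median at 0.00, where 12.3% and 14.9% of all genes did. Leaving out any other array gave 1 rise and 3 to 5 falls, and 102 to 257 rises and 120 to 346 falls over all genes.

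**Figure D5:**
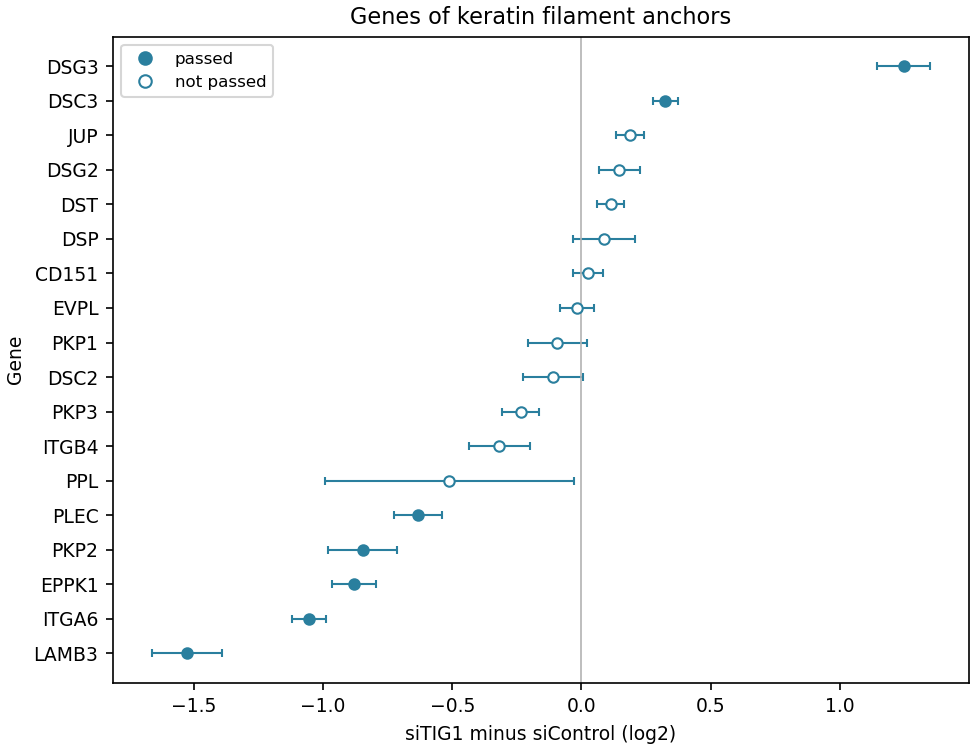
Log2 difference, siTIG1 minus siControl, of 18 genes of keratin filament anchors, sorted by size, with the standard error of the limma fit. Filled points passed the threshold: DSG3 and DSC3 to the right and PLEC, PKP2, EPPK1, ITGA6 and LAMB3 to the left.

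Genes of the cornified envelope, the protein shell of squamous cells, did not pass. Of 27 measured 0 were called by limma, where 7.32% of all genes were. At an unadjusted p under 0.05 there was 1, where 21.9% of all genes passed. Their median difference was 0.02, and 22 of the 27 lay below the median gene level. By size, ABCA12 (-0.43) and ALOX12B (-0.34), which serve skin lipids, led this list, and siControl replicate 3 lay 1.72 and 0.86 above the other controls for them. Without that array ABCA12 was at 0.15 and ALOX12B at -0.05, and 2 members rose and 1 fell, where 12.3% and 14.9% of all genes did. Of 16 other intermediate filament genes 0 passed (2 at an unadjusted p under 0.05), beside the same 7.32% and 21.9% of all genes. VIM, the mesenchymal filament vimentin, read 11.44, 11.43 and 9.67 in siControl and 11.73, 12.02 and 11.94 in siTIG1 (1.05 ± 0.48 SE, limma adjusted p = 0.27). All siTIG1 arrays were higher for VIM, and without siControl replicate 3 the difference was 0.46 and passed (limma adjusted p = 0.0023). SYNC, a filament protein of muscle, was at -0.82 (limma adjusted p = 0.13), and at -0.55 (0.012) in the fit lacking that array. In that fit 1 of the 16 rose and 4 fell, beside the same 12.3% and 14.9% of all genes.

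Of 23 measured transcription factors known to act on keratin genes, 5 rose, 2 fell and 16 did not pass, with a median of 0.02, where 3.15% and 4.17% of all genes rose and fell. Of the 23, 19 had a group mean above the median gene level, where 12.6% of all genes were called in either direction. The rises were FOS (1.76 ± 0.12 SE, limma adjusted p = 0.0022), FOSL2 (1.16 ± 0.17 SE, limma adjusted p = 0.014), FOSB (0.75), STAT3 (0.57 ± 0.08 SE, 0.015) and GRHL3 (0.25), and the falls were FOSL1 (-1.99 ± 0.29 SE, limma adjusted p = 0.015) and TFAP2A (-0.34 ± 0.07 SE, limma adjusted p = 0.039). FOSB, GRHL3 and TFAP2A complete these counts and were chosen after their values were seen. FOS, which with FOSL2, FOSB and FOSL1 encodes subunits of AP-1, was called with each single array left out. FOSL1 lost its call without any 1 siTIG1 array, FOSL2 also without siControl replicate 2, and STAT3 without siControl replicate 1, siTIG1 replicate 2 or 3. With the mean of all probe sets FOSL2 was at 0.56 and STAT3 at 0.35 (limma adjusted p = 0.015 and 0.032). FOSB was kept only without siControl replicate 3 or siTIG1 replicate 1, and GRHL3 and TFAP2A only without siControl replicate 3. Removal of siControl replicate 3 gave 11 rises and 4 falls in this list (12.3% and 14.9% of all genes). Removal of any other array gave 1 to 3 rises and 0 to 1 falls in the list. Over all genes it gave 102 to 257 rises and 120 to 346 falls.

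Markers of the epithelium were high on all arrays, with EPCAM means of 14.39 and 14.34 and CDH1 means of 13.48 and 13.52 in siControl and siTIG1. None of 6 epithelial markers was called by limma (1 at an unadjusted p under 0.05), with ST14 at 0.20 and ESRP1 at -0.29, nor any of 6 luminal markers (1 unadjusted), with GATA3 at 0.54 (limma adjusted p = 0.058, and 0.048 when adjusted over genes above the median gene level) and XBP1 at -0.59. The same held for 4 leukocyte (1 unadjusted), 6 fibroblast (0), 6 endothelial (0) and 3 melanocyte markers (2). Of all genes 7.32% were called, and 21.9% had an unadjusted p under 0.05. The largest differences of these non-epithelial lists were those of CD14 (0.36) and LYZ (-0.17), THY1 (0.09) and PDGFRB (-0.08), CDH5 (0.07) and VWF (0.07), and MLANA (0.30) and TYR (0.15). Summed linear signal of the fibroblast list ran from 2003 to 2485 in siControl and 2014 to 2262 in siTIG1, and that of the leukocyte list from 818 to 1164 and 973 to 1013. The endothelial list ran from 1741 to 1805 and 1791 to 1837, and the melanocyte list from 709 to 722 and 775 to 795. The melanocyte sums did not overlap between groups. Low levels included PTPRC, the pan-leukocyte marker (6.73 and 6.63), LUM of fibroblasts (5.01 in both groups) and CDH5 of endothelium (5.74 and 5.82). The higher group mean still lay above the median gene level for 1 of 4 leukocyte, 1 of 6 fibroblast, 2 of 6 endothelial and 0 of 3 melanocyte markers. EPCAM, CDH1, PTPRC and LUM fell outside the rule for named genes. In the fit lacking siControl replicate 3, GATA3 (0.67), CD14 (0.80) and MLANA (0.36) were called higher and XBP1 (-0.24) lower. The part of these markers in the keratin results was not tested.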

How the data were processed

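Affymetrix HG-U133 Plus arrays gave a deposited log2 signal for each probe set. The submitters' processing notes name MAS5 and RMA, and do not say which made these values. No log base is written, and 2 was taken from the range of 4.28 to 15.59. Array medians of 7.87 to 7.90 show normalization by the authors, so the log2 values were used as deposited, and a common shift of most genes would be hidden. They carry no detection call.

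Probe sets with several symbols (1801), no symbol listed (11721) or controls (62) were left out of 54675. Symbols were updated through the gene number to RefSeq of GRCh38.p14, which held 19735 of 19775 genes. Each gene took its probe set with the highest mean. Groups came from the titles. The test was limma (version 3.58.1, R 4.3.3, lmFit and eBayes, 2-sided, no block), with Benjamini-Hochberg adjustment over all genes. Simulated data used as a check had independent noise and no outlying array. That check therefore does not cover an array such as siControl replicate 3. The number of arrays limits the precision. Named keratins passed the threshold, had a group mean above the median gene level, or had groups without overlap and a difference of at least 0.3. KRT14, KRT20, KRT75 and KRT222 fell outside this rule, as did the squamous keratins that were listed together. Of other lists up to 4 called members by p, or 2 by size, were named. Members and lists were chosen with earlier results of these data known. Alternatives were another normalization, centring, a filter on dim genes, other choices of probe set, a trended robust variance, a replicate block and leaving out each array.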

Additional observations from a re-analysis of the deposited data

How the results depend on the processing

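The directions of the 5 called keratins were kept under every alternative that gave them a value. KRT23 kept its call in each of these, but it lies below the median gene level, and the filter to genes above that level leaves it out and 3 keratins higher. KRT19 kept its call except without 1 siTIG1 array. With the replicate block, 2 keratins were called higher and 0 lower (104 and 134 of all genes), and KRT15 (limma adjusted p = 0.064), KRT9 (0.072) and KRT80 (0.080) lost their calls, as did DSC3 (0.093), PLEC (0.069), PKP2 (0.061), FOSL1, FOSL2 and STAT3 (0.064 each), FOSB (0.088), GRHL3 and TFAP2A (0.14 each). The replicate numbers share only a number, with correlations of -0.08, 0.02 and -0.04 between deviations of same-numbered arrays. Quantile normalization left 0 keratins lower. With 1 array left out, 1 to 7 keratins were higher and 0 to 2 lower, and of all genes 102 to 2423 were higher and 120 to 2952 lower, against 623 and 825 with all arrays. Among genes above the median gene level the median of the squamous class was 0.17, since only 4 of its 15 members remain there. Small differences turned sign. KRT18 was at -0.0070 after quantile normalization and from -0.038 to 0.064 with 1 array left out (below 0 without siControl replicate 3 or siTIG1 replicates 2 or 3). Leave-one-out values ran from -0.0049 to 0.089 for KRT10 and from -0.0074 to 0.049 for KRT85, both below 0 without siControl replicate 2, and from -0.72 to 0.15 for ABCA12, above 0 without siControl replicate 3. Median centring, the other choices of probe set and the trended robust variance changed no call among the 13 named keratins. KRT15, KRT23, KRT9 and KRT80 have 1 probe set each, so the choice of probe set could not change their differences. Centring could move little, as the array medians already lay between 7.87 and 7.90. Low signals have no stated floor.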
